A study of Homo sapiens with 4 samples.

Results

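The amyloid precursor protein gene APP, 7 genes of the secretases that cut its product, and MME, a protease gene of amyloid-beta clearance, were followed in human cells given a U1 snRNA vector. These 9 genes (APP, ADAM10, BACE1, BACE2, PSEN2, NCSTN, APH1A, PSENEN and MME) were taken by symbol from the 25283 gene rows of the deposited table, and all 9 were found and passed the filter on low counts. The cells came from the human embryonic stem cell line H1, taken through neural progenitors and a maturation medium, and the labels call them neurons. One group of 2 libraries (U1_OE) carried a lentiviral vector for U1 snRNA and the other group of 2 libraries (WT) an empty vector, each for 36 h. The treatment text is the same for both groups and names the U1 vector, so the grouping rests on the titles and the genotype labels.

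APP is a membrane protein with a large outer part. Cleavage by an alpha-secretase, mainly ADAM10 in neurons, sheds the outer part within the amyloid-beta stretch. Cleavage by the beta-secretase BACE1 leaves a membrane stub that gamma-secretase cuts to amyloid-beta, a peptide that neprilysin, the product of MME, can degrade. U1 snRNA is the RNA of the particle that marks 5′ splice sites and holds back premature polyadenylation, and the comparison asks what more of it does to the transcripts of the cell.

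Estimated counts totalled 16713505 and 19057423 in the U1_OE libraries and 17061796 and 17636307 in the WT libraries. Nothing in the labels ties the 2 libraries of a group to separate cultures, so each p-value reflects library-to-library spread alone, which may be technical. U1 snRNA was not analysed here, so its level was not checked in any library. Levels are given as CPM, for which each library total was corrected by its TMM factor. The deposited estimates look as if already divided by transcript length, from the steps of 228 low genes and from no label. Levels are set side by side between genes on that reading, and the order of the genes rests on it.

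Neuronal markers were low in these libraries. Of 14 measured neuron markers, 7 were at 1 CPM or more in all libraries and 1 at 10 CPM or more. DCX, doublecortin, was the lowest, at 0 and 0.169 CPM in U1_OE and 0 and 0.102 CPM in WT, whereas the neuronal beta-tubulin gene TUBB3 was the highest of the list, at 263 and 337 CPM in U1_OE and 159 and 103 CPM in WT. All 16 mesenchymal and fibroblast markers reached 10 CPM in every library, with COL1A1, a type I collagen chain, highest and ACTA2, smooth muscle actin, lowest. The label of the cells thus stood against low levels of most defining neuron markers, and the values below are those of cells with mesenchymal transcripts foremost.

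**Figure D1:**
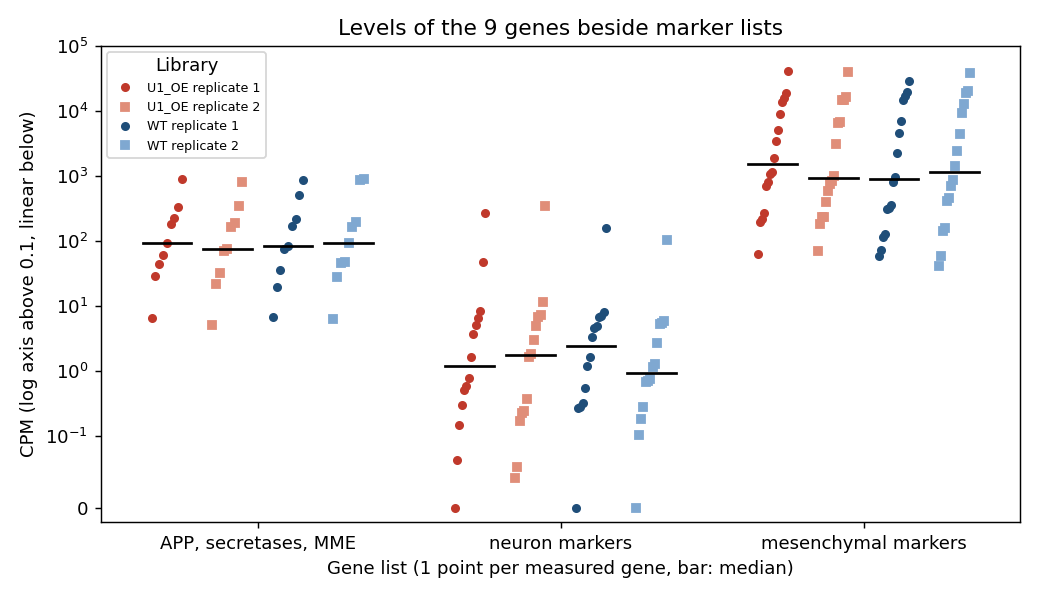
CPM of each measured gene (y axis, log above 0.1) for the 9 genes, the neuron markers and the mesenchymal markers, by library, with U1_OE in red and WT in blue and bars at the median. The medians of the 9 genes lie between those of the neuron and the mesenchymal markers, while single genes of the 3 lists overlap: PSEN2 lies among the neuron markers and TUBB3 and ACTA2 lie among the 9 genes.

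MME was lower in U1_OE than in WT cells, and the other 8 genes were not called by any tool with all 4 libraries, where edgeR called 0.00% and DESeq2 1.08% of all genes. MME averaged 335 ± 6.65 CPM in U1_OE and 675 ± 248 CPM in WT (SD, n = 2 each), a ratio of 0.497. The MME difference was called by DESeq2 and not by edgeR's quasi-likelihood test, and its size depended on which WT library was kept. With a replicate block DESeq2 did not call it (DESeq2 adjusted p 0.0856). APP averaged 856 ± 61.4 CPM in U1_OE and 875 ± 6.49 CPM in WT, a ratio of 0.979.

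APP was the most abundant of the 9 genes. APP had 900 and 813 CPM in the U1_OE libraries, against 870 and 879 CPM in the WT libraries. The WT values lay between the U1_OE values, so the groups overlapped. The edgeR log2 fold change of APP was -0.030 ± 0.13 (SE), with a 95% interval of -0.37 to 0.31 and an adjusted p of 0.968 (edgeR, Benjamini-Hochberg). The interval leaves room for a shift of up to that size either way. APP ranked between 146 and 176 among all genes in each library. APP lies on chromosome 21, 25880550 to 26171128, minus strand (GRCh38), and a noncoding gene on the opposite strand shares 68 bases of its exons.

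ADAM10 encodes the alpha-secretase. It had 220 and 164 CPM in the U1_OE libraries, against 166 and 161 CPM in the WT libraries. U1_OE replicate 1 stood above the other three libraries, and U1_OE replicate 2 fell within the WT range. Its edgeR log2 fold change was 0.23 ± 0.18, with a 95% interval of -0.24 to 0.70 and an adjusted p of 0.746 (edgeR). Without U1_OE replicate 1 the log2 fold change was 0.017. ADAM10 lies on chromosome 15, 58588807 to 58749978, minus strand. An antisense gene, AC018904.1, shares 136 bases with it and had 2.95 and 2.82 CPM in U1_OE and 0.739 and 0.750 CPM in WT. The labels name no strand-specific step, so reads in shared stretches cannot be told apart.

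BACE1, the beta-secretase, had 44.5 and 32.3 CPM in the U1_OE libraries, against 36.0 and 46.2 CPM in the WT libraries. Its paralog BACE2, which cuts APP mainly at other sites, had 28.8 and 22.0 CPM in U1_OE, against 19.3 and 27.8 CPM in WT. Both genes were high in U1_OE replicate 1 and WT replicate 2 and low in the other two libraries, so in neither did the groups separate. The edgeR log2 fold changes were -0.098 ± 0.22 for BACE1 (95% interval -0.67 to 0.48, edgeR adjusted p 0.928) and 0.10 ± 0.25 for BACE2 (95% interval -0.54 to 0.75, edgeR adjusted p 0.932). BACE1 lies on chromosome 11, 117285207 to 117316259, minus strand, and BACE2 on chromosome 21, 41167801 to 41282518, plus strand. The exons of BACE1 overlap 2 genes of the opposite strand, BACE1-AS over 26.0% and RNF214 over 17.2% of their length. BACE1-AS, a noncoding antisense RNA of BACE1, had 6.61 and 4.82 CPM in U1_OE and 6.60 and 4.51 CPM in WT.

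The gamma-secretase subunits spanned a wide range of levels. PSEN2, a presenilin that holds the catalytic site, was the lowest of the 9 genes, at 6.40 and 5.01 CPM in U1_OE and 6.74 and 6.17 CPM in WT. NCSTN, the substrate-binding subunit nicastrin, had 181 and 185 CPM in U1_OE, against 216 and 198 CPM in WT. The PSEN2 groups overlapped, while both U1_OE libraries lay below both WT libraries for NCSTN.

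APH1A, a scaffold subunit, had 91.9 and 70.7 CPM in the U1_OE libraries, against 83.9 and 91.5 CPM in the WT libraries. PSENEN, the small subunit that takes part in activating presenilin, had 60.0 and 74.7 CPM in U1_OE, against 74.3 and 47.2 CPM in WT. The groups overlapped for both. APH1A was high where BACE1 and BACE2 were high, in U1_OE replicate 1 and WT replicate 2, and PSENEN was low in those same libraries.

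No gamma-secretase subunit passed edgeR's test, which passed 0.00% of all genes. The edgeR log2 fold changes were -0.18 ± 0.25 for PSEN2 (95% interval -0.82 to 0.46), -0.17 ± 0.13 for NCSTN (-0.51 to 0.16), -0.11 ± 0.17 for APH1A (-0.56 to 0.34) and 0.15 ± 0.26 for PSENEN (-0.52 to 0.82). Their adjusted p from edgeR ran from 0.732 for NCSTN to 0.901 for PSENEN. PSEN2 had 95.7 to 115 estimated counts per library, the fewest of the 9 genes. On GRCh38, PSEN2 lies on chromosome 1, 226870184 to 226896105, plus strand, and NCSTN on chromosome 1, 160343272 to 160358952, plus strand. APH1A lies on chromosome 1, 150265399 to 150269580, minus strand, and PSENEN on chromosome 19, 35745114 to 35747519, plus strand. PSENEN shares 23.0% of its exons with AD000671.3 and 18.0% with U2AF1L4, both on the opposite strand, and 15.4% with AD000671.1 on its own strand. PSENEN also shares 9.38% with AD000671.2, and APH1A shares 14.1% with C1orf54, both on the opposite strand. NCSTN shares 3.09% with COPA on the opposite strand, which had 240 and 275 CPM in U1_OE and 217 and 243 CPM in WT. The levels of PSENEN, APH1A and NCSTN are thus uncertain to the extent that reads were divided there.

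**Figure D2:**
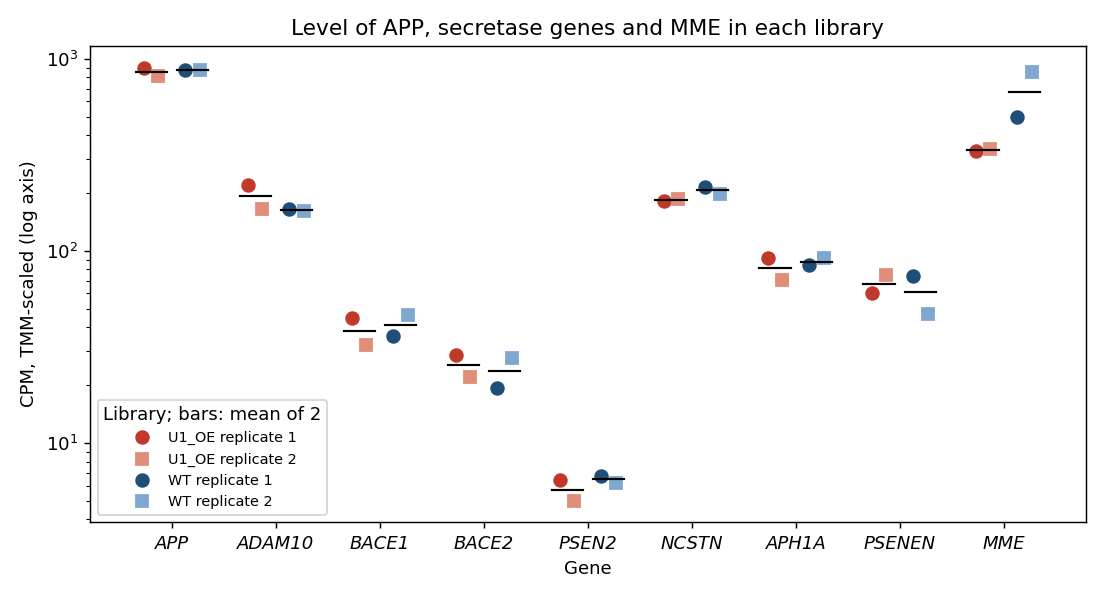
CPM (log axis) of the 9 genes in each library, with U1_OE in red left of WT in blue and bars at the mean of 2 libraries. APP leads at 813 to 900 CPM and PSEN2 is lowest at 5.01 to 6.74 CPM, and MME is the gene with the widest gap between the group means.

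MME was the gene of the 9 that differed most. It had 331 and 340 CPM in the U1_OE libraries, against 499 and 850 CPM in the WT libraries. The U1_OE libraries lay close together and below both WT libraries, which were themselves far apart. The 2 WT libraries differed by 0.77 on the log2 scale in MME, against a median of 0.19 over the 12263 tested genes that averaged 50 counts or more, and 93.3% of those genes differed less. The 2 U1_OE libraries differed by 0.040.

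The edgeR log2 fold change of MME was -1.01 ± 0.28 (95% interval -1.72 to -0.30), with an unadjusted p of 0.0151 and an adjusted p of 0.467 (edgeR). DESeq2 gave -0.99 ± 0.26 and an adjusted p of 0.0173 (95% interval -1.50 to -0.49). Over all genes, edgeR called 0 of 17317, or 0.00%, with 9.08% under an unadjusted p of 0.05 and 4.72% under it and lower in U1_OE. Of 17440 genes, DESeq2 called 1.08%, and 0.470% of the 17440 were called and lower in U1_OE. Of those 12263 genes, 2.15% had a log2 fold change at or below that of MME.

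The size of the MME difference depended on which WT library was kept. Without WT replicate 2 the DESeq2 log2 fold change was -0.57 and not called, and without WT replicate 1 it was -1.32, against -0.99 with all 4 libraries. Each of these fits leaves 1 WT library, so they cannot tell which WT library is atypical. In both of these fits MME stayed lower in U1_OE. MME lies on chromosome 3, 155024124 to 155183729, plus strand, and its antisense gene MME-AS1, which shares 2.22% of its exons, had 0.996 and 0.675 CPM in U1_OE and 2.68 and 3.96 CPM in WT. In bulk RNA, fewer cells with MME and less MME RNA per cell cannot be told apart.

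Mesenchymal and fibroblast cells are also known to carry the MME product, CD10. The summed level of the 16 mesenchymal markers was 113875 and 106322 CPM in U1_OE and 97058 and 110244 CPM in WT, so the groups overlapped in the sum. COL1A1, COL1A2, SPARC and FN1 made the largest parts of that sum, so it says little of the other markers. Of the 16 single markers, 10 had groups apart and were higher in U1_OE, where 19.7% of all tested genes were, and 1, SPARC, was apart and lower, where 22.0% of all tested genes were. DESeq2 called 3 of that list, COL6A1, POSTN and LOX, each higher in U1_OE, beside 1.08% of all genes. The neuron list summed to 337 and 375 CPM in U1_OE and 198 and 128 CPM in WT, mostly through TUBB3. DESeq2 called TUBB3 and GAP43, a growth cone protein, both higher, beside 1.08% of all genes. Of the 14 measured neuron markers, 3 had groups apart and higher in U1_OE and 3 apart and lower. Over all tested genes these shares were 19.7% and 22.0%. The part of these shifts in the MME difference was not tested.

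**Figure D3:**
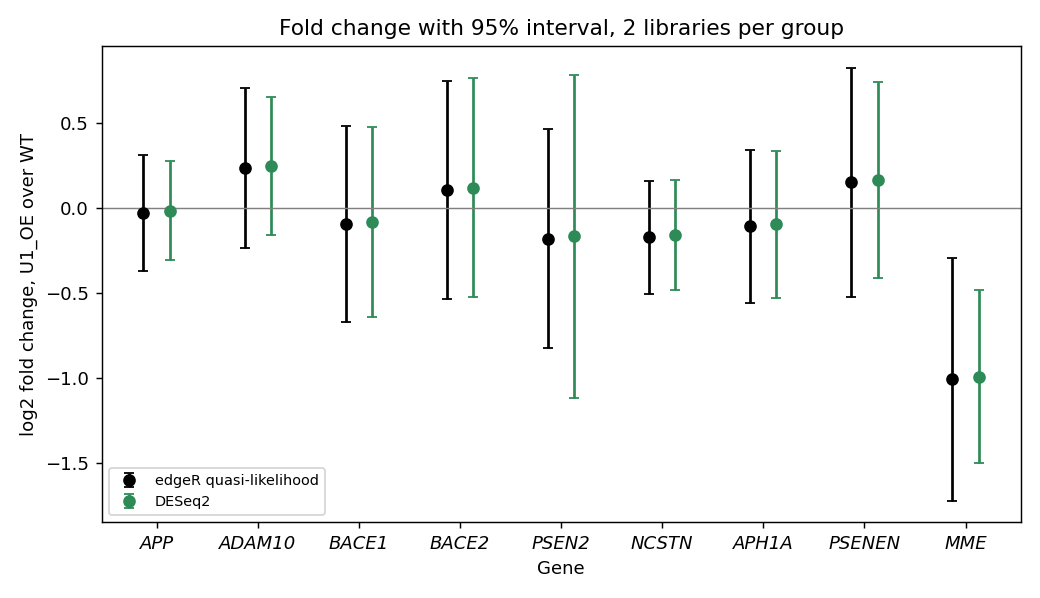
log2 fold change, U1_OE over WT, of the 9 genes with 95% intervals by edgeR (black) and DESeq2 (green), from 2 libraries per group. The intervals of 8 genes cross 0 with both tools, and those of MME lie below 0, at -1.72 to -0.30 by edgeR and -1.50 to -0.49 by DESeq2, before adjustment over all genes.

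Taken as a list, the 9 genes had a median edgeR log2 fold change of -0.098, with 6 below 0 and 3 above, where 50.7% of all tested genes were below 0 and the median of all was -0.0055. The median absolute log2 fold change was 0.15 for the 9 genes and 0.26 over all 17317. The groups did not overlap for 2 of the 9, NCSTN and MME, both lower in U1_OE, where 41.7% of all tested genes had groups apart and 22.0% of all tested genes were apart and lower. For NCSTN the difference in means, 183 ± 3.09 CPM in U1_OE and 207 ± 12.7 CPM in WT, was small and not called.

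The order of the 9 genes by mean level over the 4 libraries was APP, MME, NCSTN, ADAM10, APH1A, PSENEN, BACE1, BACE2 and PSEN2. Neighbours in this order whose ranges over the 4 libraries overlapped were APP and MME, NCSTN and ADAM10, and APH1A and PSENEN. APP was above MME in each of the 4 libraries, NCSTN above ADAM10 in 3 of 4, and APH1A above PSENEN in 3 of 4. BACE1 was above BACE2 in each library, and PSEN2 was below every other gene.

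The balance between members was set side by side as ratios within each library. The ratio of MME to APP was 0.367 and 0.418 in U1_OE, against 0.574 and 0.966 in WT. The ratio of ADAM10 to BACE1 was 4.95 and 5.08 in U1_OE, against 4.61 and 3.49 in WT, and that of BACE1 to BACE2 was 1.55 and 1.47 in U1_OE, against 1.87 and 1.66 in WT. In these ratios, and in ADAM10 to APP, the groups did not overlap. Taken singly, 41.7% of all tested genes had groups apart, and the ratios were named after their values were seen. The exact two-sided permutation p of each was 0.333, the smallest that 2 libraries against 2 allow, and 0.667 after adjustment over the 8 ratios computed, so none could pass. The ratios of BACE1 to APP and of PSEN2, PSENEN and APH1A to NCSTN overlapped between the groups. PSEN2 stood at 0.0354 and 0.0270 of the NCSTN level in U1_OE and at 0.0313 and 0.0312 in WT.

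The direction of 5 of the 9 genes turned when a single library was left out. With all 4 libraries each of these 5 had a log2 fold change smaller than its SE. The share of all genes that turned was not computed. With each library left out in turn, the edgeR log2 fold change ran from -0.093 to 0.038 for APP, -0.33 to 0.11 for BACE1, -0.11 to 0.39 for BACE2, -0.30 to 0.063 for APH1A and -0.14 to 0.54 for PSENEN. ADAM10 stayed above 0 (0.017 to 0.43). PSEN2 (-0.35 to -0.020), NCSTN (-0.24 to -0.088) and MME (-1.32 to -0.58) stayed below 0. In each of these smaller fits edgeR called 0 genes of all tested, the 9 included.

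**Figure D4:**
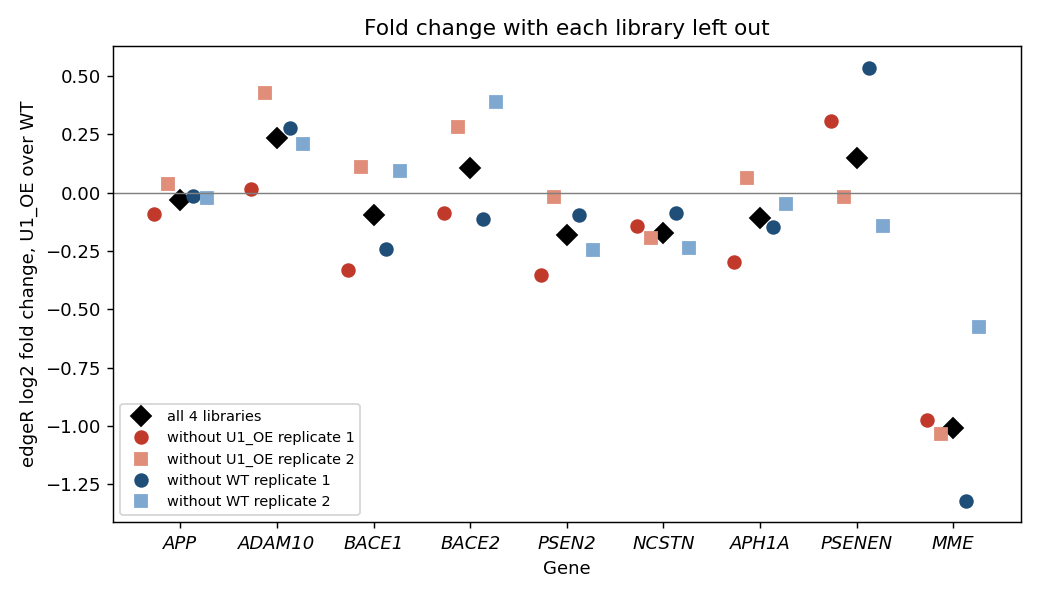
edgeR log2 fold change, U1_OE over WT, of each gene with all 4 libraries (black diamonds) and with 1 library left out (coloured points). BACE1, BACE2, APH1A, PSENEN and APP have points on both sides of 0, and MME runs from -1.32 to -0.58.

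The wider pathway was read from a list of 41 further genes, of which 40 were measured and 38 tested. edgeR and DESeq2 called 0 of the 38. Unadjusted edgeR p under 0.05 were 0 higher and 3 lower, beside 9.08% of all genes in either direction and 4.72% of all genes lower. The median log2 fold change was -0.065, with 17 genes above 0 and 21 below. The groups were apart in 8 genes higher and 8 lower in U1_OE, beside 19.7% and 22.0% of all tested genes.

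Among the adaptors of the APP tail, APBB3 and APBB2, members of the Fe65 family, had the smallest p. APBB3 had 25.4 and 27.8 CPM in the U1_OE libraries, against 43.5 and 48.0 CPM in the WT libraries. Its log2 fold change was -0.78 ± 0.14 (edgeR unadjusted p 0.00269, adjusted p 0.459; DESeq2 adjusted p 0.0909). APBB2 had 64.5 and 76.2 CPM in U1_OE, against 94.7 and 89.7 CPM in WT, with -0.39 ± 0.14. Both groups of libraries stood apart in each gene, lower in U1_OE, as in 22.0% of all tested genes. Neither gene passed either tool.

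Among other proteases that degrade amyloid-beta, IDE, insulin-degrading enzyme, had 7.92 and 10.6 CPM in the U1_OE libraries, against 16.5 and 14.5 CPM in the WT libraries. Its log2 fold change was -0.74 ± 0.22 (edgeR unadjusted p 0.0224, adjusted p 0.492). PITRM1, a mitochondrial peptidase, had 53.4 and 51.9 CPM in U1_OE, against 45.1 and 40.2 CPM in WT. IDE was thus lower and PITRM1 higher in both U1_OE libraries, as were 22.0% and 19.7% of all tested genes, and neither was called. MMEL1, the closest relative of MME, had 3.39 and 5.89 CPM in U1_OE and 4.88 and 6.39 CPM in WT, with overlapping groups.

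On the gamma-secretase side, APH1B, the paralog of APH1A, had 12.9 and 12.96 CPM in U1_OE, against 10.1 and 9.06 CPM in WT (0.44 ± 0.18, edgeR adjusted p 0.562). TMED10, a cargo receptor that binds gamma-secretase, had 873 and 598 CPM in U1_OE, against 510 and 534 CPM in WT (0.50 ± 0.21, edgeR adjusted p 0.573). Both were higher in each U1_OE library, as were 19.7% of all tested genes, without a call over the 4 libraries. TMED10 had 0.21 by edgeR without U1_OE replicate 1, and DESeq2 called it without U1_OE replicate 2 (0.75, DESeq2 adjusted p 0.0104). On the alpha-secretase side, TSPAN17 and TSPAN33 encode tetraspanins that help ADAM10 leave the endoplasmic reticulum. TSPAN17 had 42.5 and 44.1 CPM in U1_OE, against 39.5 and 33.1 CPM in WT, and TSPAN33 had 0.925 and 2.16 CPM in U1_OE, against 2.29 and 4.24 CPM in WT. These 2 partners of ADAM10 thus stood on opposite sides, neither called.

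APLP2, a paralog of APP, had 497 and 632 CPM in U1_OE, against 623 and 694 CPM in WT, and ITM2C, a BRI family protein that binds APP, had 965 and 549 CPM in U1_OE, against 559 and 696 CPM in WT. Both overlapped between the groups. Among proteins that bind or sort BACE1, GGA3 had 36.9 and 35.1 CPM in U1_OE, against 32.8 and 34.0 CPM in WT, and RTN3 had 55.0 and 55.2 CPM in U1_OE, against 62.3 and 59.6 CPM in WT. Their log2 fold changes of 0.11 and -0.15 were small, although the groups were apart, as in 41.7% of all tested genes. Of the sorting receptors and retromer, SORT1 and VPS26A had the smallest p, at -0.22 ± 0.17 and -0.22 ± 0.14.

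**Figure D5:**
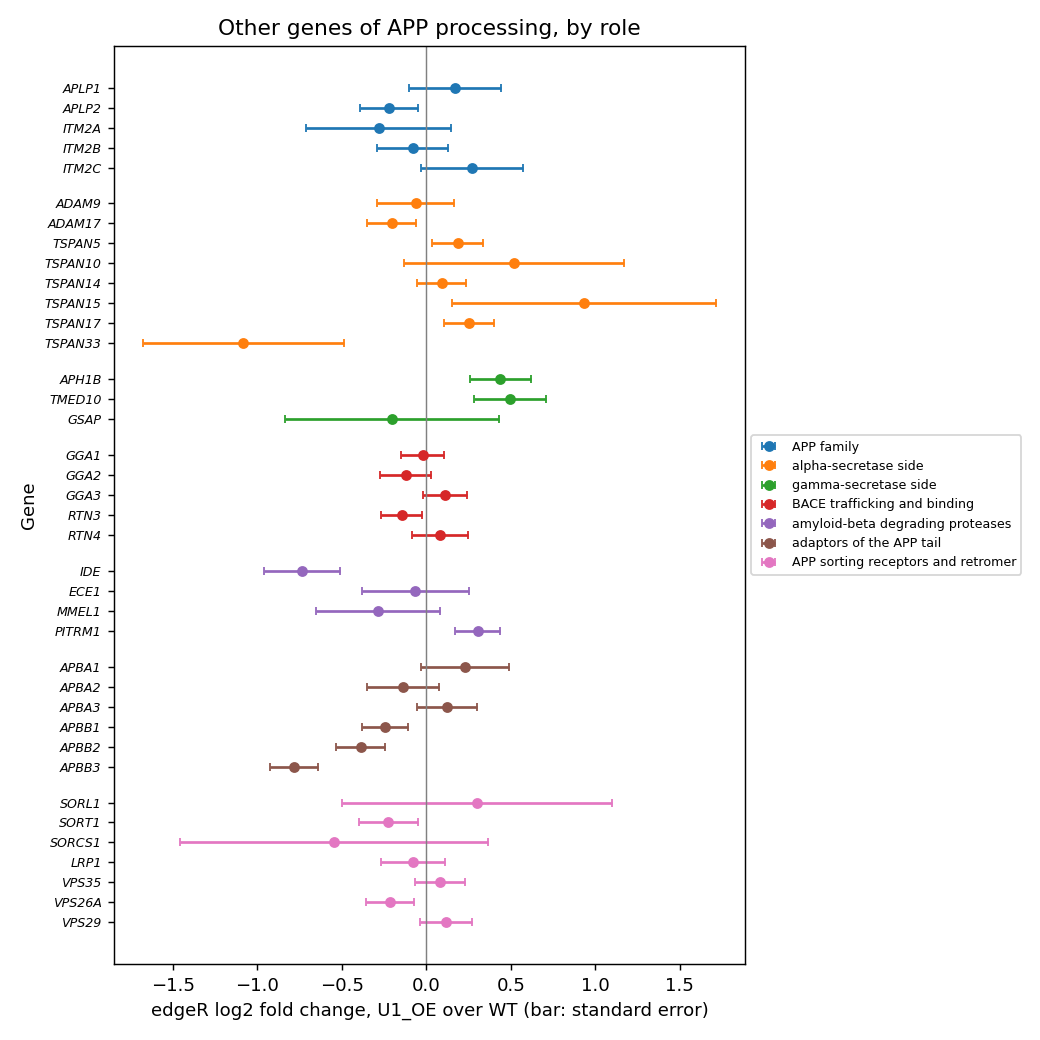
edgeR log2 fold change, U1_OE over WT, of the 38 tested genes of the wider pathway, coloured by role, with bars of 1 standard error. Most lie near 0, and APBB3 at -0.78 and IDE at -0.74 lie farthest from 0 among those with short bars.

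Genes with the most similar profile over the 4 libraries were sought among 12263 genes by the root mean square difference of centred log2 CPM. For APP these were the ribosomal protein gene RPL4 (0.00639), the autophagy gene ATG9A (0.00862) and SFT2D2 (0.0106), and 1682 genes lay within 0.1, since many genes varied as little as APP. For MME they were PARP10 (0.0515), MAILR (0.0556) and MMP25-AS1 (0.0645), and 7 genes lay within 0.1. PARP10, an ADP-ribosyltransferase gene, had 7.23 and 7.98 CPM in U1_OE, against 11.2 and 18.1 CPM in WT. With 4 libraries this likeness is a description only.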

How the data were processed

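RNA-seq gene values of 2 U1_OE and 2 WT libraries were used, grouped by sample title. The authors deposited estimated counts per gene, few of them whole (1.99% of the values above 0, within 0.01). Per the submitters' processing notes, Trim Galore, STAR, featureCounts, DESeq2 and hg38 were used, with versions and roles not given in the sources used here. Of 5259 low rows, 435 moved in whole steps between libraries (tolerance 1.5%). There the step worth 1 read had a median of 3.42 in the 57 genes with the shortest transcripts (median 691 bases) and 0.728 in the 57 with the longest (2804 bases), of 228 such genes with a known length, split into 4 classes. The deposited estimates thus look like reads per length scaled to the library total, which no label states. A planned division by exon length was kept only as an alternative, and the estimates carry count noise only approximately, so limma-trend was added after the data were seen.

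Rounded values went into edgeR 4.0.16 under R 4.3.3 (filterByExpr, TMM, quasi-likelihood test, Benjamini-Hochberg over 17317 genes, two-sided, called under 0.05). Standard errors and intervals come from its F statistic. DESeq2 1.42.0 and limma 3.58.1 (voom, and trend with a prior count of 2) were alternatives, with RLE or library-size scaling, no filter, a minimum mean count of 50, a replicate block, and each library left out. Procedures were tested on simulated data. Library totals of 16713505 to 19057423 and the small number of libraries limit the precision. Gene positions are from GENCODE v29.

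The 9 genes, the pathway list and the marker lists were chosen with earlier results of these data known. Named beside the 9 were any pathway gene called by edgeR or DESeq2, the 2 with the smallest edgeR p per role, the 3 most similar genes for APP and MME, and the highest and lowest neuron and mesenchymal markers. MMEL1, SPARC, COL6A1, POSTN, LOX, GAP43, NES, GJA1, PECAM1, CD68, the overlapping genes and ratios were named after their values were seen. The remaining marker lists were summed per library. Neural progenitor markers had 44.9 and 57.6 CPM in U1_OE and 45.6 and 44.8 in WT. Astrocyte markers had 998 and 1001 CPM in U1_OE and 1184 and 1401 in WT. Endothelial markers had 42.3 and 76.7 CPM in U1_OE and 28.2 and 35.1 in WT. Microglia and blood markers had 71.8 and 82.2 CPM in U1_OE and 49.2 and 41.6 in WT. Most of each sum came from 1 gene: NES, GJA1, PECAM1 and CD68, in that order. Single markers went both ways. Groups were apart and higher in U1_OE for 1 progenitor, 2 astrocyte, 2 endothelial and 2 microglia and blood markers. They were apart and lower for 3, 1, 2 and 1 in the same order. Over all tested genes 19.7% were apart and higher and 22.0% apart and lower.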

Additional observations from a re-analysis of the deposited data

How the results depend on the processing

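edgeR called 0 genes under each scaling, filter and design tried and with each library left out, as did limma-voom and limma-trend, with 1572 genes under an unadjusted p of 0.05 by edgeR, 1548 by limma-voom and 1646 by limma-trend. By edgeR that number was 1658 without U1_OE replicate 1, 2632 without U1_OE replicate 2, 879 without WT replicate 1, 811 without WT replicate 2 and 1072 with the replicate block. DESeq2 called 189 genes, of which 1 was among the 9 (MME), and 147 without U1_OE replicate 1, 322 without U1_OE replicate 2, 55 without WT replicate 1, 62 without WT replicate 2 and 80 with the replicate block. Of 108 values of the 9 genes under alternatives, 99 kept their direction without a call, 1 gained a call (MME by DESeq2) and 8 turned direction, each with a library left out. Over those fits APP ran from -0.093 to 0.038, BACE1 from -0.33 to 0.11, BACE2 from -0.11 to 0.39, APH1A from -0.30 to 0.063 and PSENEN from -0.14 to 0.54. The cause was not tested. The DESeq2 value of MME ran from -1.32 to -0.57 with a library left out, and was -0.94 with the replicate block, where the call was lost (DESeq2 adjusted p 0.0856). Without U1_OE replicate 1 its adjusted p was 0.04999. Same-numbered libraries did not deviate together (r = -0.038 over 17317 genes, 2 pairs). With 2 pairs this cannot tell whether the numbers pair the samples. Fitted with edgeR, the replicate block called 0 genes and 0 of the 9. Divided by exon length, APP made up 45.8% of the summed level of the 9 genes in U1_OE and MME 11.8%, against 48.0% and 18.8% as deposited. Divided by the longest transcript, APP made up 52.0% and MME 12.8%. With both lengths PSENEN and APH1A moved above ADAM10. The all-gene median log2 fold change was -0.0055 under TMM, 0.0056 under RLE and -0.041 when only library size was used.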

Other observations

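BACE1, BACE2 and APH1A had their higher values in U1_OE replicate 1 and WT replicate 2, and PSENEN had its lower values there. The summed level of the 9 genes was 1863 and 1707 CPM in the U1_OE libraries and 1971 and 2306 CPM in the WT libraries, both U1_OE libraries below both WT libraries. Without MME the sum was 1533 and 1367 CPM in U1_OE and 1472 and 1457 CPM in WT, and the groups overlapped. MME made up 18.8% of that sum in U1_OE and 31.1% in WT.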
